A study of Sus scrofa with 9 samples.

Results

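The genes described here encode the proteins that hold neighbouring cells together: cadherins, the desmosomal cadherins with their plaque proteins, claudins and other tight junction proteins, the connexins of gap junctions and the nectin PVRL1. They were chosen by symbol alone. Every row named CDH, CLDN, DSG, DSC, PKP, TJP, GJA, GJB or GJC with a number was taken, except CDH5, together with DSP, JUP, OCLN, PERP, F11R, CGN, PVRL1, PVRL3, NECTIN1 and NECTIN3, and 68 of the 34580 rows of the expression table fitted. The values are FPKM as deposited, fragment counts scaled to transcript length and to the size of the library. Of the 68 genes, 52 reached FPKM 1 in at least 2 libraries and were tested, 11 were above 0 but lower, and 5 (CDH1, CDH16, DSC2, CLDN15 and GJA4) were listed at 0 in all 9 libraries. Because HPRT1, SDHA and RPL7, which most cells use, were also listed at 0 throughout, an entry of 0 for E-cadherin (CDH1) or desmocollin 2 (DSC2) was not read as absence.

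RNA came from whole Dm3 germs, a deciduous molar of the lower jaw, of untreated miniature pig fetuses removed from anesthetized sows. There were 3 libraries for the cap stage at embryonic day 40 (E40), 3 for the early bell stage at day 50 (E50) and 3 for the late bell stage at day 60 (E60). A whole germ holds dental epithelium, dental mesenchyme and some vessels, so fewer cells of a type and less RNA per cell cannot be told apart. The study calls them biological replicates, and no source used here says whether they came from separate fetuses or litters. The p-values therefore measure only the spread between these libraries, which may be technical.

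Cell-cell junctions are built from a small set of adhesive and channel proteins. Classical cadherins bind the same kind of cadherin on the next cell and link to actin through catenins, whereas desmogleins and desmocollins link to keratin filaments through plakoglobin, plakophilins and desmoplakin. Claudins and occludin seal the space between epithelial cells at tight junctions, with ZO proteins and cingulin on the inner side, and connexins form channels through which ions and small molecules pass from cell to cell. In a tooth germ these junctions join the inner enamel epithelium, the stratum intermedium and the stellate reticulum, and gap junctions also join the cells of the dental papilla.

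The libraries fell into sets of very different depth. The number of reads recovered from the FPKM steps was 14362175 to 16674237 in the 3 E50 libraries and E60 library 1, and 938477 to 1760334 in the 3 E40 libraries and E60 libraries 2 and 3. The row LOC102158401 took 22.3% to 40.6% of the reads in the shallow libraries and at most 0.576% in the deep ones, and between-library Pearson correlations across genes on the log2 scale were 0.959 to 0.983 among deep, 0.743 to 0.838 among shallow and 0.301 to 0.609 between deep and shallow libraries. For E40 against E50, stage and depth set cannot be told apart, and the same holds for E50 against E60 once E60 library 1 is left out. E60 against an earlier stage could be compared within each set: E60 library 1 with E50, and E60 libraries 2 and 3 with E40. The late bell label was checked with the 5 ameloblast markers found, AMEL, AMBN and ENAM among them. They summed to 18298, 3387 and 8385 FPKM in the E60 libraries and to 14.4 to 23.9 FPKM in the 6 earlier ones. Not every marker rose. In the limma test described below, 3 of the 5 rose from E50 to E60 over all 9 libraries and none fell. Without E60 library 1, 3 rose and 1 fell. The 12 dental epithelial markers found (keratins, EPCAM, TP63 and others) summed to 1500 to 6223 FPKM over the libraries.

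A few genes made up most of the junction transcripts. The gap junction gene GJA1 (connexin 43) had the highest level of all, with 283, 344 and 424 FPKM in the 3 E40 libraries, 1725, 2020.2 and 2007 at E50 and 3145, 596 and 1212 at E60. It held 88.9% to 99.7% of the summed connexin FPKM of each library. Among the cadherins, CDH11 held 41.8% to 52.7% of the summed FPKM in each library. The leading claudin differed between the sets, as did the make-up of the desmogleins.

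From E40 to E50, the junction genes moved in both directions. Connexin 43, CLDN1, CLDN6, CLDN12, CLDN17, DSG2, PKP4 and the type II cadherins CDH7, CDH8, CDH10 and CDH18 rose, and among those that fell were DSG1, DSG4, CLDN9, CLDN19, CLDN20, CLDN22, CLDN24, CDH9, TJP3 and the connexins GJA9 and GJC3. In all, 11 of 52 genes were past the limits upward and 12 downward, with an adjusted p under 0.05 and a change of at least 1 on the log2(FPKM + 0.1) scale. Over all 19618 rows tested, 16.8% passed upward, 21.8% downward and 38.6% either way, so these counts stood near the background. The stages did not overlap for 27 genes that were higher and 16 that were lower at E50, against 45.2% and 27.8% of all rows. The median change was 0.60 for the junction genes and 0.55 for all rows, and after median-ratio scaling it was -0.04 and -0.09, with 8 genes up and 12 down, against 2392 and 4878 of all rows (12.2% and 24.9%) in place of 3296 and 4284. The number past the limits fell from 23 to 3 without E40 library 1, without E50 library 2 or without E50 library 3, to 9 without E40 library 2 and to 10 without E50 library 1, and stood at 34 without E60 library 1 (21 up and 13 down, against 30.5%, 24.2% and in all 54.6% of all rows). Those that held in each of the 9 fits with a library left out were CLDN17 upward and DSG1 and CLDN20 downward. The same 3 passed with the depth set as a term. That term is set by E60 alone, library 1 against libraries 2 and 3, and is taken to be the same at each stage. It therefore cannot separate stage from depth set for this comparison.

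**Figure D1:**
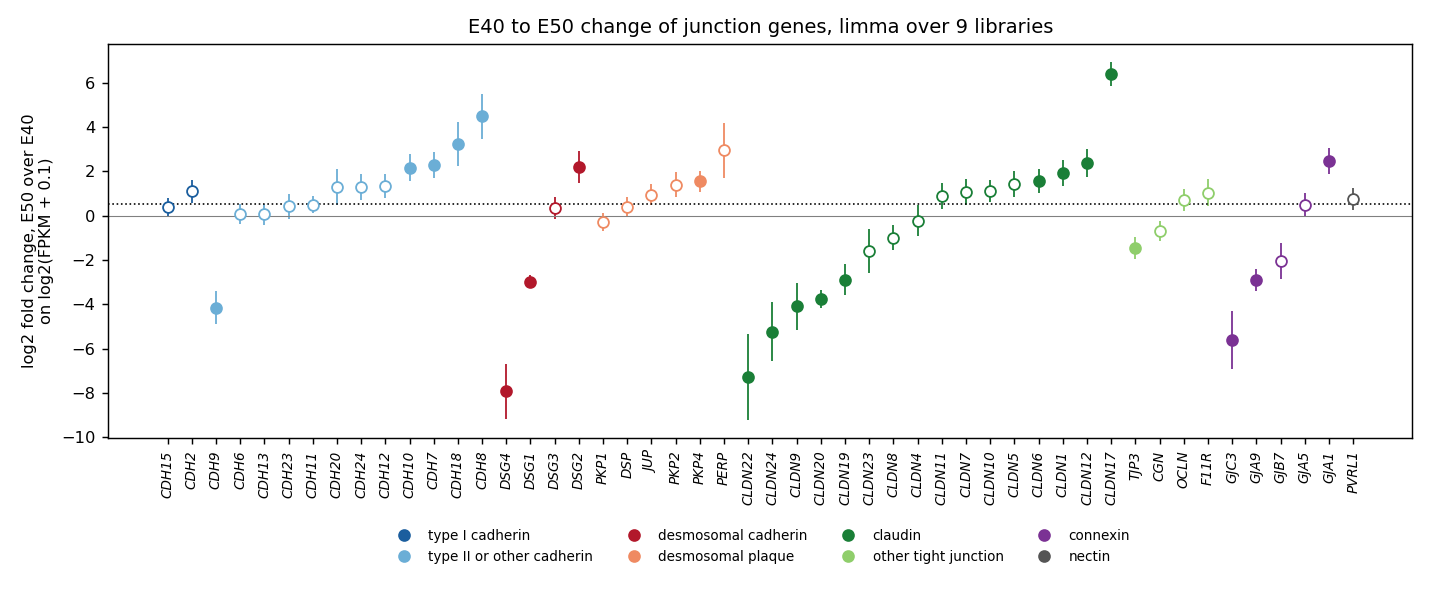
Log2 fold change from E40 to E50 on the log2(FPKM + 0.1) scale for the junction genes tested and named here, grouped by class; bars are standard errors of the limma fit over 9 libraries, filled points passed the limits and the dotted line is the median of all rows, 0.55. DSG4 has the lowest change, -7.94, and GJA1 lies at 2.47; the points of CLDN17 and CLDN24 each rest on a stage listed at 0 and are no measure of their folds.

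From E50 to E60, the claudin CLDN20 rose and no junction gene fell past the limits of the limma test over all 9 libraries. This is 1 of 52 genes, against 0.051% of all rows upward, 0.0204% downward and 0.0714% either way, and 23 of the 52 had an unadjusted p under 0.05, against 30.2% of all rows. With limma-voom on the recovered reads CLDN20 and CDH23 rose and none fell, against 0.872% of all rows upward and 0.163% downward. CLDN20 kept its call in 1 of the 9 fits with a library left out, the fit without E60 library 1. In that fit 7 junction genes rose and 24 fell, against 20.0%, 39.1% and in all 59.1% of all rows, with only shallow E60 libraries set against deep E50 ones. The stages did not overlap for 6 genes higher and 17 lower at E60, against 5.18% and 21.6% of all rows. The median change was -0.87 for the junction genes and -0.64 for all rows, and -0.10 and 0.08 after median-ratio scaling.

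From E40 to E60, CLDN17 rose and the claudin CLDN8, the desmoglein DSG1 and the cadherin CDH9 fell. These were 1 and 3 of 52 genes, against 0.663% of all rows upward, 1.14% downward and 1.8% either way. The stages did not overlap for 4 genes higher and 13 lower at E60, against 3.89% and 19.0% of all rows. The number past the limits was 7 without E60 library 1 or without E60 library 2, 1 without E40 library 2, and 2 without E40 library 1, E40 library 3 or any 1 of the E50 libraries. Without E60 library 1 CLDN17 rose, and CLDN8, DSG4, DSG1, CDH9, CDH15 and OCLN fell, against 1.37% of all rows upward, 4.68% downward and 6.06% either way. With median-ratio scaling over all 9 libraries the split turned to 4 up (GJA1, PKP4, CLDN17 and CLDN10) and 2 down (DSG1 and CDH9), against 2.03% and 1.61% of all rows.

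Within the 5 shallow libraries, 51 junction genes were tested from E40 to E60, and DSG4 and DSG1 fell, against 1.09% of 18426 rows downward, 0.212% upward and 1.3% either way. After median-ratio scaling none of the 51 passed, against 0.847% of all rows, with 13 at an unadjusted p under 0.05 (12.6% of all rows), and limma-voom called 6 (4.44% of all rows). Within the 4 deep libraries, 42 were tested from E50 to E60. CLDN20 rose and CGN, CLDN8, CLDN4 and CLDN11 fell, against 2.86% of 14499 rows upward, 2.88% downward and 5.74% either way. Here the E60 stage is a lone library that is assumed to vary like the E50 libraries.

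Comparing E60 with the earlier stage of like depth gave 2 differences that share no library. CDH23 was at least 1 log2 unit higher at E60 in both, and CLDN8, CLDN4 and CGN were at least 1 log2 unit lower in both, against 1.74% of all rows higher and 2.28% lower. Relative to the median row, -0.07 in the deep and -0.46 in the shallow libraries, 20 of 52 genes (38.5%) were lower in both sets and 13 (25.0%) higher in both, against 30.8% of all rows for each. The 20 were the cadherins CDH2, CDH11, CDH12, CDH15 and CDH20, the claudins CLDN1, CLDN4, CLDN6, CLDN7, CLDN8, CLDN9 and CLDN23, the other tight junction genes OCLN, CGN and TJP3, the plaque genes JUP, PKP1, PKP2 and DSP, and the connexin GJB7. No test was made of these counts.

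**Figure D2:**
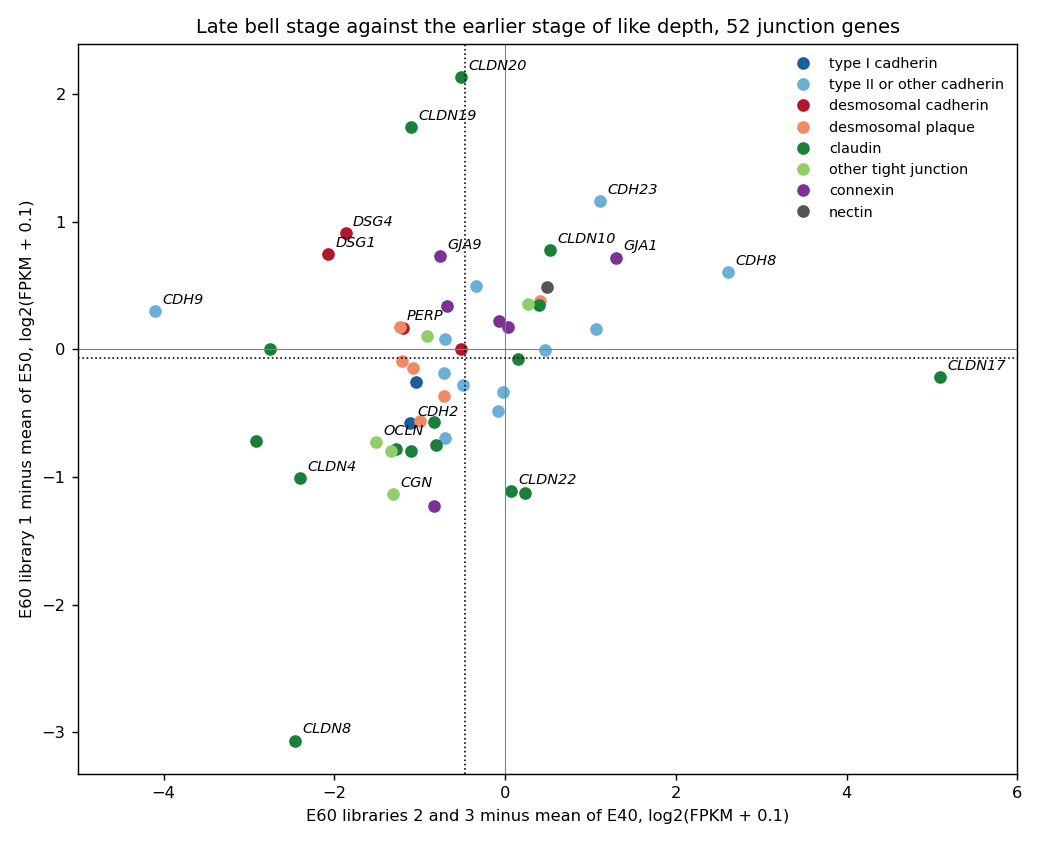
E60 library 1 minus the mean of the 3 E50 libraries (vertical, deep libraries) against E60 libraries 2 and 3 minus the mean of the 3 E40 libraries (horizontal, shallow libraries), both in log2(FPKM + 0.1), for the 52 junction genes; dotted lines mark the median of all rows, -0.07 and -0.46. CLDN8 lies at the lower left at -3.06 and -2.46, and CDH23 at the upper right at 1.16 and 1.11.

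N-cadherin and M-cadherin were the type I cadherins above 0 among the genes found by symbol. N-cadherin (CDH2), a cadherin of mesenchyme, nerve and muscle that is also found in dental cells, had 15.4, 27.5 and 24.3 FPKM in the E40 libraries, 46.4, 52.8 and 41.5 at E50 and 31.2, 7.43 and 13.5 at E60. All 4 deep libraries were above all 5 shallow ones. E60 library 1 nevertheless lay below every E50 library, and E60 libraries 2 and 3 below every E40 library, with differences of -0.58 and -1.11 on the log2 scale. Relative to the median row of each set these differences are -0.51 and -0.65. M-cadherin (CDH15), known from the precursors of skeletal muscle fibres, had 19.7, 16 and 18.8 FPKM at E40, 25.7, 22.4 and 23.5 at E50 and 19.9, 9.88 and 7.75 at E60. It too was lower at E60 within each set, with log2 differences of -0.26 in the deep and -1.04 in the shallow libraries. Against the median row they are -0.19 and -0.57. The 7 muscle markers found, with CKM and TNNT3 listed at 0, summed to 52.9 to 80.8 FPKM at E40, 7.12 to 9.53 at E50 and 5.93, 9.70 and 11.9 at E60. Their part in the CDH15 values was not tested.

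Among the type II and other cadherins, CDH11 was the most abundant. CDH11, a cadherin of mesenchymal cells, had 62, 71.1 and 75.9 FPKM at E40, 91.3, 102 and 101 at E50 and 86.3, 34.3 and 51.7 at E60, with no overlap between the deep and the shallow libraries. Its share of the summed cadherin FPKM, which does not depend on the scaling between libraries, was 52.7%, 50.2% and 49.9% at E40, 41.8%, 43% and 45.7% at E50 and 43.3%, 47.8% and 52% at E60. CDH13 (T-cadherin), which is anchored to the membrane by a lipid and has no cytoplasmic tail, had 5.4, 10.4 and 15.9 FPKM at E40, 11.2, 9.66 and 9.58 at E50 and 14.3, 6.73 and 8.63 at E60, and its stages overlapped throughout.

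CDH8 and CDH9, type II cadherins best known from the brain, moved in opposite directions from E40 to E50. CDH8 had 0, 0.855 and 0.679 FPKM at E40, 8.34, 9.48 and 10.1 at E50 and 14.2, 1.3 and 4.6 at E60, so every E50 and E60 library was above every E40 library. Between E40 and E50 the log2 fold change was 4.48 ± 1.02 (SE), limma adjusted p = 0.0143. It rests on 2 reads at E40 and 474 at E50, a ratio of 17.2 per unit of library size with a 95% counting interval of 4.73 to 142. From E40 to E60 the log2 fold change was 3.43 ± 1.02 (SE), limma adjusted p = 0.15, which missed the limits. Limma-voom called this change (3.34, adjusted p = 0.0475), and after median-ratio scaling it missed (limma adjusted p = 0.0728). CDH9 had 4.66, 2.38 and 1.89 FPKM at E40, 0.0426, 0.0749 and 0.0652 at E50 and 0.0968, 0 and 0.177 at E60. All E40 libraries were above all others, and the log2 fold change was -4.16 ± 0.75 (SE) from E40 to E50, limma adjusted p = 0.0123, and -4.02 ± 0.75 (SE) from E40 to E60, limma adjusted p = 0.0322. The E40 to E60 call rests on 30 reads at E40 and 6 at E60, and it was lost without any single E40 or E50 library (adjusted p up to 0.127).

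CDH7, CDH10 and CDH18 rose with CDH8 from E40 to E50. CDH7 had 1.21, 1.94 and 2.57 FPKM at E40 and 8.33, 9.98 and 9.75 at E50, a log2 fold change of 2.29 ± 0.58 (SE), limma adjusted p = 0.0183. CDH10 rose by 2.17 ± 0.59 (SE), limma adjusted p = 0.0226, and CDH18 by 3.24 ± 1.01 (SE), limma adjusted p = 0.0342. The CDH18 call was lost with limma-voom (adjusted p = 0.0801) and after median-ratio scaling (limma adjusted p = 0.0654), while CDH7 and CDH10 kept theirs. E60 library 1 had 9.29 FPKM of CDH7, close to E50, whereas E60 libraries 2 and 3 had 2.13 and 3.09, close to E40. CDH6, CDH12, CDH20 and CDH24 did not pass the limits in any comparison over all 9 libraries, and their E50 levels were 1.78 to 4.83 FPKM. CDH17, CDH19 and CDH22 were at most 0.406 FPKM in any library and were not tested.

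CDH23, a long cadherin of the hair cells of the inner ear, had 0.889, 0.529 and 0.77 FPKM at E40, 1.26, 0.944 and 0.806 at E50 and 2.33, 1.34 and 2.05 at E60. All E60 libraries were above all E40 and E50 libraries. The within-set differences were 1.16 (limma adjusted p = 0.1 over the deep libraries) and 1.11 (limma adjusted p = 0.444 over the shallow ones), neither past the limits. Over all 9 libraries limma-voom called CDH23 higher at E60 than at E50 and at E40, by 1.51 and 1.52 on the log2 scale (adjusted p = 0.0357 and 0.0415), and it called both within-set differences, 1.29 in the deep and 1.67 in the shallow libraries (adjusted p = 0.000319 and 0.0114). In RefSeq, CDH23 overlaps PSAP, VSIR and C14H10orf105, and whether the counting kept their reads apart from its own is not given in the sources used here.

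**Figure D3:**
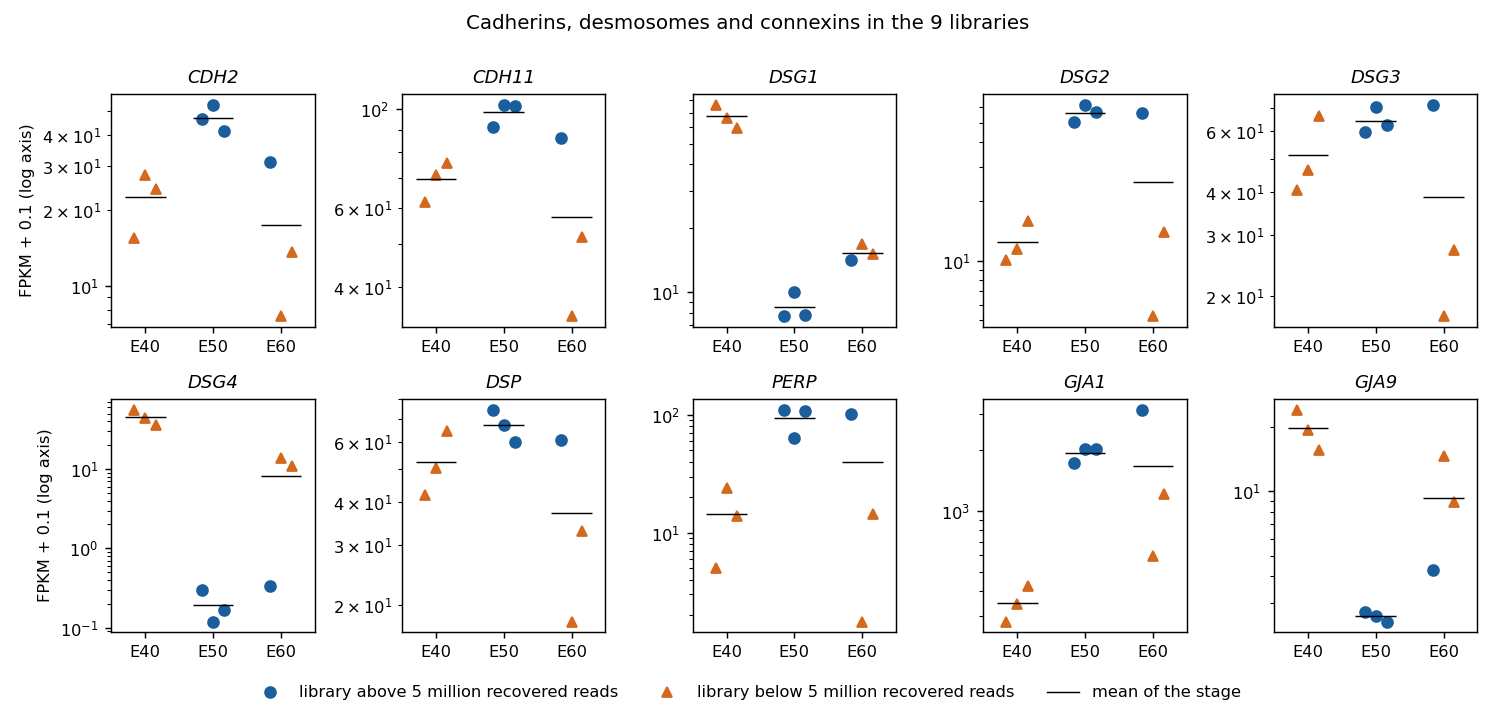
FPKM + 0.1 on a log axis in each of the 9 libraries for 10 cadherin, desmosomal and connexin genes; circles are the deep libraries, triangles the shallow ones and the lines the stage means. GJA1 is highest in E60 library 1, at 3145 FPKM, and DSG4 is at most 0.239 FPKM in the deep libraries against at least 10.8 FPKM in the shallow ones.

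The desmogleins, cadherins of desmosomes, differed in make-up, with DSG2 and DSG3 leading in the deep libraries and DSG1 and DSG4 taking a large share in the shallow ones. DSG3, a desmoglein of the basal layers of stratified epithelium, had 40.5, 46.1 and 66.3 FPKM at E40, 59.6, 70.3 and 62.4 at E50 and 71.6, 17.3 and 27 at E60. Its E40 and E50 values overlapped. E60 libraries 2 and 3 were below all other libraries and E60 library 1 above all others.

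DSG2, the desmoglein that most epithelia carry, had 9.97, 11.3 and 15.9 FPKM at E40, 50.5, 61.6 and 56.2 at E50 and 56.1, 5.13 and 13.9 at E60. It was higher in every deep library than in any shallow one, with a log2 fold change of 2.19 ± 0.72 (SE) from E40 to E50, limma adjusted p = 0.0397, a call that 2 of the 9 fits with a library left out kept. The sign of this change turned to -0.52 with the depth set as a term.

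DSG1, a desmoglein of the upper layers of stratified epithelium, fell after E40. It had 76.3, 66 and 59.3 FPKM at E40, 7.6, 9.91 and 7.76 at E50 and 14.1, 16.7 and 15 at E60, and all E40 libraries were above all later ones. The log2 fold change was -2.98 ± 0.29 (SE) from E40 to E50, limma adjusted p = 0.00252, and -2.13 ± 0.29 (SE) from E40 to E60, limma adjusted p = 0.0097. The first held in all 9 fits with a library left out and the second in 8, with an adjusted p of 0.0509 without E40 library 2. Within the shallow libraries alone, DSG1 fell from E40 to E60 by 2.07 on the log2 scale (limma adjusted p = 0.0227). Within the deep libraries it was higher in E60 library 1 than in any E50 library, by 0.74 (limma adjusted p = 0.0439), which was under the fold limit.

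DSG4, a desmoglein of differentiated epithelial layers and hair, was lower in every deep library. It had 55.9, 44 and 35.5 FPKM at E40, 0.197, 0.0193 and 0.0671 at E50 and 0.239, 13.5 and 10.8 at E60. The 4 deep libraries held 1 to 12 reads of it each, and the 5 shallow libraries 58 to 163. The change from E40 to E50 was -7.94 ± 1.23 (SE), limma adjusted p = 0.011. From E50 to E60 it was 4.35 ± 1.23 (SE), limma adjusted p = 0.164, and from E40 to E60 -3.59 ± 1.23 (SE), limma adjusted p = 0.203, neither past the limits. Within the shallow libraries DSG4 fell by 1.87 on the log2 scale from E40 to E60 (limma adjusted p = 0.0489), while E60 library 1 was above the E50 mean by 0.91.

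Of the summed desmoglein FPKM, DSG1 held 41.8%, 39.4% and 33.5% at E40, 6.45%, 6.99% and 6.13% at E50 and 9.89%, 31.7% and 22.6% at E60. DSG4 held 30.6%, 26.3% and 20.0% at E40, 25.7% and 16.2% in E60 libraries 2 and 3, and at most 0.168% in a deep library. Of the 12 dental epithelial markers tested, 1 (KRT15) fell from E40 to E50 and none rose, with a list median of 0.29 on the log2 scale, and the same counts held from E40 to E60, with a median of -0.25. KRT15 had 552, 611 and 750.3 FPKM at E40, 85.4, 64.7 and 91.2 at E50 and 27.5, 8.76 and 37.6 at E60. KRT5, which did not pass, had 2527, 3015 and 3659.7 FPKM at E40, 2289.8, 1712 and 2386 at E50 and 2181, 858 and 2635 at E60. Their part in the desmoglein values was not tested.

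Of the 6 genes grouped here by symbol as desmosomal plaque, PERP and PKP4 among them, 1 passed the limits upward from E40 to E50 and none downward. Desmoplakin (DSP), which ties the plaque to keratin, had 41.9, 50.2 and 64.5 FPKM at E40, 74.5, 67.3 and 60.0 at E50 and 60.7, 17.8 and 32.8 at E60. Its E40 and E50 libraries overlapped, and only E60 libraries 2 and 3 lay below all others. PERP, a membrane protein of desmosomes, had 4.87, 23.9 and 13.8 FPKM at E40, 111, 63.6 and 107 at E50 and 103, 1.66 and 14.3 at E60. All 4 deep libraries were above all 5 shallow ones, and the shallow libraries differed among themselves from 1.66 to 23.9 FPKM. Its change of 2.94 ± 1.24 (SE) from E40 to E50 missed the limit, limma adjusted p = 0.0831, as did -2.73 ± 1.24 (SE) from E50 to E60, limma adjusted p = 0.167.

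Of the genes with a plakophilin symbol, PKP4 rose from E40 to E50, by 1.55 ± 0.48 (SE), limma adjusted p = 0.0332. The PKP4 call was kept with limma-voom (adjusted p = 0.0289) and lost after median-ratio scaling, where the change of 0.89 was under the fold limit. With the depth set as a term the change was 0.034. PKP4 had 16.9, 23.3 and 26.5 FPKM at E40, 61.2, 68.5 and 62.6 at E50 and 83.1, 20.8 and 40.5 at E60, again with all deep libraries above all shallow ones. PKP1 had 35.3, 35.7 and 41.3 FPKM at E40, 37.1, 26.7 and 28.4 at E50 and 28.6, 10.4 and 24.8 at E60, so all E60 libraries were below all E40 libraries. PKP2 and plakoglobin (JUP) were at 1.22 to 11.4 FPKM and 3.77 to 18.4 FPKM over the 9 libraries, did not pass the limits in any comparison over all 9, and were lower at E60 than in every library of the earlier stage within each depth set.

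The claudins differed in make-up between the depth sets, while their summed level ranged less, with 166, 175 and 183 FPKM at E40, 192, 177 and 204 at E50 and 161, 140.4 and 143 at E60. CLDN1, a claudin of stratified epithelia, held 13.5%, 12.7% and 16.7% of that sum at E40, 48.7%, 53.7% and 47.3% at E50 and 39.9%, 6.67% and 14.5% at E60. CLDN22 and CLDN20 held most of the rest in the shallow libraries. CLDN22 alone held 36.9%, 33% and 26% at E40 and 51% and 32.7% in E60 libraries 2 and 3, but at most 0.402% in a deep library. The summed level without CLDN20 and CLDN22 ranged more. It was 65.6, 83.9 and 104 FPKM at E40, 189, 175 and 201 at E50 and 150, 42.7 and 73.8 at E60.

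**Figure D4:**
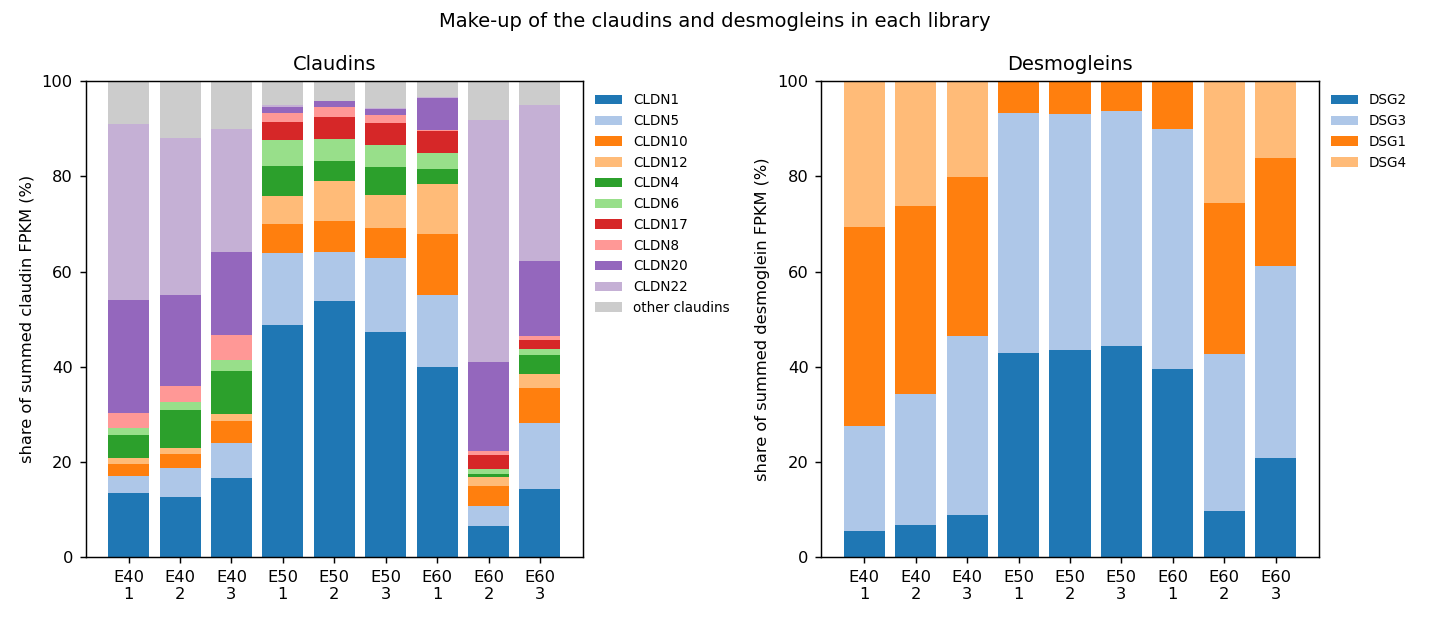
Share of the summed claudin FPKM (left) and desmoglein FPKM (right) taken by each gene in each library, in percent; each bar is 1 library, named by stage and replicate. CLDN1 holds 39.9% to 53.7% of the claudins in the 3 E50 libraries and E60 library 1, where DSG2 and DSG3 make up most of the desmogleins.

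CLDN1 had 22.4, 22.3 and 30.5 FPKM at E40, 93.5, 95.3 and 96.3 at E50 and 64.1, 9.36 and 20.7 at E60. It rose from E40 to E50 by 1.93 ± 0.60 (SE), limma adjusted p = 0.033, and all E60 libraries were below all E50 libraries. The change from E50 to E60, -2.03 ± 0.60 (SE), did not pass, limma adjusted p = 0.164. Within the depth sets CLDN1 was lower at E60, with differences of -0.57 in the deep and -0.83 in the shallow libraries, which is -0.50 and -0.36 relative to the median row of each set.

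CLDN6 and CLDN12 rose with CLDN1 from E40 to E50. CLDN6, a claudin of embryonic epithelia, had 2.44, 2.91 and 4.04 FPKM at E40, 10.3, 8.29 and 9.41 at E50 and 5.49, 1.66 and 1.74 at E60. It rose by 1.57 ± 0.53 (SE), limma adjusted p = 0.0425. The later change of -1.84 ± 0.53 (SE) did not pass, limma adjusted p = 0.164, although all E60 libraries were below all E50 libraries. CLDN12 had 2.37, 2.11 and 2.87 FPKM at E40, 11.2, 14.8 and 13.7 at E50 and 16.7, 2.53 and 4.14 at E60. It rose by 2.39 ± 0.63 (SE), limma adjusted p = 0.0208, and its E40 to E60 change of 1.18 ± 0.63 (SE) did not pass, limma adjusted p = 0.342. Its mean was higher at E60 in both depth sets, by 0.34 and 0.40, with overlap in the shallow libraries. With the depth set as a term the E40 to E50 change turned to -0.26 for CLDN1 and -0.066 for CLDN6 and was 0.056 for CLDN12, and the CLDN6 call was lost with limma-voom (adjusted p = 0.0738) and after median-ratio scaling (limma adjusted p = 0.0575).

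CLDN17, known as an anion channel of the tight junction, was listed at 0 in all 3 E40 libraries. It had 7.41, 8.24 and 9.57 FPKM at E50 and 7.16, 4.18 and 2.63 at E60, from 94, 119 and 119 reads and 100, 5 and 4 reads. Against a floor of 3 reads over the E40 libraries together, it was 8.02-fold higher at E50 and 6.25-fold higher at E60. The floor covers counting error at E40 only, and the E50 and E60 reads were taken as counted. The limma adjusted p was 0.000984 from E40 to E50 and 0.00237 from E40 to E60, and both calls held in all 9 fits with a library left out. In the shallow libraries the comparison rests on 0 reads at E40 against 5 and 4 at E60. Within that set it passed the limits by limma-voom (adjusted p = 0.0354) and missed them by limma (adjusted p = 0.137).

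CLDN20 and CLDN22 were higher in every shallow library. CLDN20 had 39.2, 33.2 and 31.7 FPKM at E40, 2.43, 2.28 and 2.65 at E50 and 11.1, 26.2 and 22.4 at E60, with no overlap between any 2 stages. Its log2 fold change was -3.77 ± 0.39 (SE) from E40 to E50, limma adjusted p = 0.00315, and 2.88 ± 0.39 (SE) from E50 to E60, limma adjusted p = 0.049. Within the deep libraries E60 library 1 was higher than the E50 mean by 2.13 (limma adjusted p = 2.20e-08). CLDN20 overlaps TFB1M in RefSeq, so the same limit holds for its reads as for those of CDH23.

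CLDN22 had 61.4, 57.8 and 47.4 FPKM at E40, 0.772, 0.0617 and 0.215 at E50 and 0.0638, 71.6 and 46.8 at E60. E60 library 1 stood with the E50 libraries, at 1 read, and E60 libraries 2 and 3 with the E40 libraries, at 96 and 80 reads. The log2 change from E40 to E50 was -7.29 ± 1.95 (SE), limma adjusted p = 0.0212. This call was kept after median-ratio scaling (limma adjusted p = 0.0273) and lost with limma-voom (adjusted p = 0.0876). The changes of 4.53 ± 1.95 (SE) from E50 to E60, limma adjusted p = 0.164, and -2.75 ± 1.95 (SE) from E40 to E60, limma adjusted p = 0.461, did not pass, and the latter turned to 0.068 within the shallow libraries.

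CLDN9, CLDN19 and CLDN24 also fell from E40 to E50 (limma adjusted p = 0.019, 0.0172 and 0.0183). Their E40 levels were 1.35 to 7.89 FPKM and their E50 levels 0 to 0.592 FPKM. CLDN24 had 11 reads over the E40 libraries and none at E50. Against the floor of 3 reads it was 50.6-fold lower at E50, with the few E40 reads taken as counted.

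CLDN8 and CLDN4, claudins of tight epithelia, were lower at the late bell stage in libraries of either depth. CLDN8 had 5.48, 6.12 and 9.72 FPKM at E40, 3.33, 3.39 and 3.49 at E50 and 0.319, 0.932 and 1.46 at E60, with no overlap between any 2 stages. It fell from E40 to E60 with a log2 fold change of -2.99 ± 0.57 (SE), limma adjusted p = 0.0346. That call was lost without any single E40 or E50 library (adjusted p up to 0.119), and within the shallow libraries the adjusted p was 0.0663. Within the deep libraries the difference of -3.06 passed (limma adjusted p = 3.15e-10), from 38 to 44 reads in the E50 libraries to 4 in E60 library 1. CLDN4 had 7.8, 13.9 and 16.6 FPKM at E40, 12.4, 7.46 and 12 at E50 and 5.1, 0.816 and 5.76 at E60. All E60 libraries were below all others, and the differences were -1.01 in the deep (limma adjusted p = 0.00442) and -2.41 in the shallow libraries (limma adjusted p = 0.18). After median-ratio scaling CLDN8 was still at least 1 log2 unit lower in both sets, and CLDN4 was not.

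**Figure D5:**
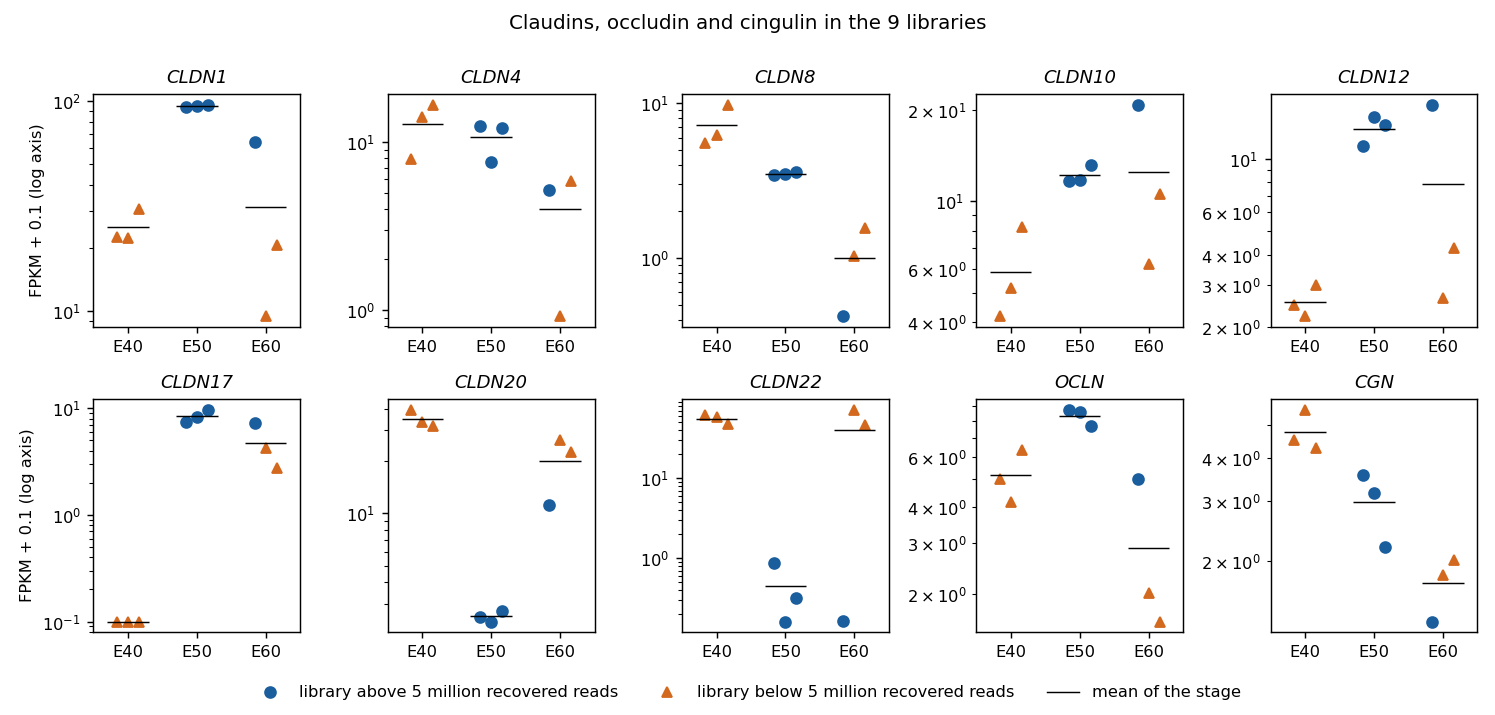
FPKM + 0.1 on a log axis in each of the 9 libraries for 10 tight junction genes; circles are the deep libraries, triangles the shallow ones and the lines the stage means. CLDN8 is highest in the 3 E40 libraries, from 5.48 to 9.72 FPKM, and at most 1.46 FPKM in the 3 E60 libraries.

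CLDN10, a claudin with ion-selective isoforms, took a larger share of the claudins at E60 once CLDN20 and CLDN22 were set aside. It had 4.08, 5.1 and 8.11 FPKM at E40, 11.6, 11.6 and 13.1 at E50 and 20.7, 6.11 and 10.5 at E60. Without CLDN20 and CLDN22 in the sum, its share was 6.08% to 7.82% in the 6 earlier libraries and 13.9%, 14.3% and 14.2% in the 3 E60 libraries, so that the E60 libraries of both depths stood above all others. On the same base CLDN12 held 2.52% to 3.61% at E40, 5.94% to 8.48% at E50 and 11.2%, 5.92% and 5.62% at E60, higher at E60 within each depth set. The share of CLDN10 was chosen for this description after its values were seen. Over all 9 unscaled libraries CLDN10 did not pass the limits in any comparison.

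CLDN5, the claudin of blood vessel endothelium, had 5.96, 10.6 and 13.5 FPKM at E40, 29.2, 18.4 and 31.7 at E50 and 24.4, 5.67 and 19.7 at E60. The 7 endothelial markers found summed to 26.7 to 27.0 FPKM at E40, 67.4 to 70.5 at E50 and 78.5, 23.0 and 36.0 at E60. Their part in the CLDN5 values was not tested. Of the other claudins, CLDN7 and CLDN11 were at 0.502 to 4.86 FPKM, CLDN23 at 0 to 5.02 FPKM, and CLDN3, CLDN14, CLDN16, CLDN18 and CLDN25 were at most 1.57 FPKM and were not tested.

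Among the other tight junction genes, JAM-A was the most abundant. JAM-A (F11R), an adhesion molecule of epithelium, endothelium and blood cells, had 16.8, 19 and 27.8 FPKM at E40, 40.7, 40.4 and 47.7 at E50 and 46, 6.85 and 17.3 at E60. All deep libraries were above all shallow ones, and JAM-A did not pass the limits in any comparison over all 9 libraries.

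Cingulin (CGN), which binds ZO proteins and the cytoskeleton, had 4.42, 5.45 and 4.18 FPKM at E40, 3.46, 3.07 and 2.09 at E50 and 1.22, 1.72 and 1.91 at E60, so all E60 libraries were below all E50 libraries and these below all E40 libraries. Its within-set differences were -1.14 in the deep (limma adjusted p = 0.0207) and -1.31 in the shallow libraries (limma adjusted p = 0.183). Occludin (OCLN), a membrane protein of tight junction strands, had 4.92, 4.08 and 6.23 FPKM at E40, 8.64, 8.48 and 7.58 at E50 and 4.93, 1.91 and 1.5 at E60. All E60 libraries were below all E50 libraries, and E60 libraries 2 and 3 below all E40 libraries. The differences were -0.73 in the deep and -1.51 in the shallow set, or -0.66 and -1.04 relative to the median row. ZO-3 (TJP3) fell from E40 to E50 with a log2 fold change of -1.46 ± 0.50 (SE), limma adjusted p = 0.0438, from 4.67, 4.76 and 3.31 FPKM to 1.67, 1.5 and 1.24, and had 0.796, 1.59 and 1.6 at E60. It overlaps APBA3 in RefSeq, with the same limit.

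Connexin 43 (GJA1), the main connexin of dental epithelium and papilla, was higher in every library of each later stage than in any E40 library. It rose from E40 to E50 by 2.47 ± 0.61 (SE), limma adjusted p = 0.0168. The change from E40 to E60 was 1.93 ± 0.61 (SE) and did not pass over the unscaled values, limma adjusted p = 0.172. It passed after median-ratio scaling (2.04, limma adjusted p = 0.0106) and with limma-voom (2.18, adjusted p = 0.0169). In the shallow libraries alone it missed the limits by limma (adjusted p = 0.151) and passed by limma-voom (adjusted p = 0.000455). Within the shallow libraries both E60 libraries were above all E40 libraries, by 1.30 on the log2 scale, and within the deep libraries E60 library 1 was above all E50 libraries, by 0.72. Relative to the median row of each set these differences are 1.76 and 0.79.

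The other connexins were much lower. GJA9 had 24, 19.2 and 15.6 FPKM at E40, 2.63, 2.5 and 2.35 at E50 and 4.19, 14.6 and 8.8 at E60. All E60 libraries lay between the E50 and the E40 libraries, and between E40 and E50 the log2 fold change was -2.90 ± 0.48 (SE), limma adjusted p = 0.0123. GJC3, a connexin of glial cells, had 2.58, 15 and 7.33 FPKM at E40, 0.165, 0 and 0 at E50 and 0.0752, 7.91 and 2.07 at E60. Its fall from E40 to E50, a log2 fold change of -5.60 ± 1.31 (SE), limma adjusted p = 0.0152, rests on 23 reads at E40 and 2 at E50, a ratio of 159 per unit of library size with a 95% counting interval of 39.2 to 1388. The 6 nerve and glia markers found summed to 0.799 to 6.21 FPKM over the libraries, with S100B listed at 0. GJA5, a connexin of arteries and the heart, was at 1.31 to 3.86 FPKM without passing the limits. GJB7 was at 0.0880 to 2.25 FPKM and missed the limits of limma over all 9 libraries. It was lower at E50 than at E40 without E60 library 1 (limma adjusted p = 0.00622), and lower at E60 than at E40 by limma-voom (adjusted p = 0.0496). GJA10 and GJB1 were at most 1.15 FPKM and were not tested.

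PVRL1 (nectin-1), which starts the adhesion that cadherins then strengthen and joins ameloblasts to the stratum intermedium, was the nectin found by symbol. It had 2.1, 7.5 and 3.97 FPKM at E40, 7.36, 5.91 and 7.23 at E50 and 9.58, 5.72 and 5.6 at E60. The stages overlapped and no comparison passed the limits. Within the sets it was higher at E60, by 0.49 and 0.50.

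Many of these genes followed the depth set of the library, as did many of all rows. For 24 of the 52 all 4 deep libraries were above all 5 shallow ones, against 37.7% of all rows, and for another 9 (CLDN9, CLDN20, CLDN22, DSG1, DSG4, GJA9, GJB7 and GJC3 among them) all deep libraries were below all shallow ones, against 20.1%. Among the 24 were CDH2, CDH15, CDH7, CDH8, CDH10, CDH11, CDH12, CDH18, CDH20 and CDH24, and also DSG2, PERP, PKP2, PKP4, JUP, F11R, GJA1, CLDN1, CLDN6, CLDN7, CLDN10, CLDN12 and CLDN17. The 3 E60 libraries are split between the sets, so for these genes the E60 spread takes in both.

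The partners of these genes, taken from a list of catenins, scaffolds, tricellular proteins and regulators, were counted in the same fits. Of 73 rows found, 64 were tested. From E40 to E50, 10 rose (CTNNB1, CTNNA2, CTNNA3, CGNL1, PRKCI, MAGI2, YBX3, ESAM, TWIST2 and GJD3) and 5 fell (PPL, EVPL, CDSN, LSR and GJD2), against 16.8% and 21.8% of all rows. From E50 to E60 none passed the limits of the limma test, with 13 at an unadjusted p under 0.05 (30.2% of all rows) and 1 rise by limma-voom (0.872% of all rows). From E40 to E60 CDSN, EVPL and GRHL3 fell and none rose, against 1.14% and 0.663% of all rows, with 15 of the 64 at an unadjusted p under 0.05 (17.9% of all rows). Limma-voom called 4 up and 8 down, against 2.27% and 12.2% of all rows. Beta-catenin (CTNNB1), which binds the tails of classical cadherins, had 149, 187 and 222 FPKM at E40, 565, 636 and 601 at E50 and 747, 122 and 245 at E60, with all deep libraries above all shallow ones. Corneodesmosin (CDSN), the glycoprotein that caps desmosomes in cornifying epithelium, had 3.45, 2.69 and 3.97 FPKM at E40, 0.165, 0.0242 and 0 at E50 and 0, 0.293 and 0 at E60. Envoplakin (EVPL), which ties desmosomes to the cornified envelope, had 11.1, 11.1 and 14.5 at E40, 4.02, 2.57 and 2.91 at E50 and 2.7, 1.8 and 3.01 at E60. For both, all E40 libraries were above all later ones, as for DSG1.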

How the data were processed

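The authors depleted rRNA, made directional libraries, aligned the reads with TopHat (genome Sscrofa10.2, per the labels) and deposited 1 table of FPKM for 34580 rows in 9 libraries. The annotation and the strand setting of the counting are not given in the sources used here. Whole reads were recovered from the FPKM steps for 27090 of 27090 rows above 0 in 2 or more libraries, within 0.02 reads, as the smallest numbers that fit. They were used for depth and for intervals, which cover counting error only. Libraries above 5000000 recovered reads were called deep. In them 1 read was worth less, so low genes are measured more precisely there.

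Rows with FPKM 1 or more in 2 libraries were tested with limma 3.58.1 in R 4.3.3 (lmFit, eBayes with trend) on log2(FPKM + 0.1), in a fit with 1 mean per stage, and p was adjusted over all rows tested after Benjamini and Hochberg. This scale shrinks changes of low genes, but it can enlarge them where a shallow library holds no read. In those libraries 1 read was worth 0.311 to 0.591 FPKM in a median row, more than the 0.1 added. The limits were an adjusted p of 0.05 and a log2 fold change of 1.

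Values per library were given for the 2 genes of highest mean per class, those past the limits in E50 to E60 or E40 to E60, the 3 largest rises and falls per comparison with a stage mean of at least 5 FPKM, and those 1 log2 unit apart in both depth sets. CDH7, PKP1, PKP4, CLDN5, CLDN10, OCLN, TJP3, CTNNB1, CDSN and EVPL were added after their values were seen. Some of the genes counted here are not reported by name. The genes, lists and tests were chosen with earlier results of these data known. RefSeq (Sscrofa11.1) matched 66 of the 68 symbols and was used for names and overlaps. Alternatives were median-ratio scaling, other pseudocounts and filters, a fit of the compared stages, a replicate block, a depth term, limma-voom on recovered reads and leaving out each library. The fits within a depth set, and the rescaled fits without E60 library 1, were chosen after seeing the data.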

Additional observations from a re-analysis of the deposited data

How the results depend on the processing

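Low read numbers and the depth sets limit these results. A median row had 1 read worth 0.037 to 0.591 FPKM, so genes near 1 FPKM in the shallow libraries rest on a few reads. Stage and depth set cannot be told apart for E40 against E50, and leaving out a library changes the tests' spread as well as the means. Replicate numbers did not pair the libraries: the correlation of same-numbered deviations ran from -0.52 to 0.11. With a replicate block 19, 0 and 1 junction genes passed from E40 to E50, E50 to E60 and E40 to E60, with 25, 18 and 13 at an unadjusted p under 0.05.

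From E40 to E50 the main number was 23, with 36 in the fit of only the compared stages, 3 with the depth set as a term and 3 to 34 with a library left out. From E50 to E60 the main number was 1, with 0 under no filter, in the fit of the compared stages and with the depth term (24, 14 and 4 at an unadjusted p under 0.05), 2 with limma-voom and 0 to 31 with a library left out. With the fits chosen after seeing the data it was 19 without E60 library 1 after median-ratio scaling, 5 within the deep libraries, and 4 there after median-ratio scaling or with limma-voom. From E40 to E60 the main number was 4, with 2 at a pseudocount of 0.01 or a filter of FPKM 5 in 3 libraries. It was 0 in the fit of the compared stages (12 at an unadjusted p under 0.05), 7 with the depth term and 1 to 7 with a library left out. Limma-voom called 17, against 2.27% of all rows upward and 12.2% downward. Within the shallow libraries the number was 2, and 0 after median-ratio scaling. The genes 1 log2 unit apart in both depth sets fell from 4 to 2 after median-ratio scaling (CDH23 and CLDN8) and to 1 at a pseudocount of 1 (CLDN8). Other alternatives gave counts within 1.5 times the main one. Counts given without a share of all rows say nothing about the junction genes in particular.

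With the depth set as a term the E40 to E50 log2 change turned to -1.41 for PERP, 1.18 for CLDN22, -0.066 for CLDN6, -0.26 for CLDN1 and -0.52 for DSG2. From E50 to E60 it turned to -1.11 for CLDN22 and 0.17 for PERP. By design the depth term returns the E50 to E60 change of the deep libraries alone, and the E40 to E60 change of the shallow ones. The E40 to E50 change with this term rests on E60 library 1, the only deep E60 library. Within the deep libraries the PERP change was 0.24 after median-ratio scaling and 0.23 with limma-voom. For CLDN22 from E40 to E60 the change with the depth term, and so within the shallow libraries, was 0.068. In the shallow libraries it was 0.55 after median-ratio scaling and 0.54 with limma-voom. It was 0.50 without E60 library 1 after median-ratio scaling, and -4.32 to 0.068 with a library left out. The cause of these turns was not tested.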

Other observations

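Some junction genes stand in the table under a LOC name and were found by gene ID in RefSeq, outside the symbol rule. NECTIN3, the partner of nectin-1 on the neighbouring cell, had 7.8, 10.23 and 14.96 FPKM at E40, 29.7, 42.6 and 39.2 at E50 and 42.8, 8.11 and 9.54 at E60, with all deep libraries above all shallow ones. ZO-1 (TJP1), the main scaffold of tight junctions, had 15.4, 14 and 19.9 FPKM at E40, 32.9, 34.4 and 29.3 at E50 and 39.8, 16 and 16.9 at E60, again with the deep libraries above the shallow ones. PKP3, a plakophilin of stratified epithelium, had 17.7, 18.7 and 20.6 FPKM at E40, 19.6, 13.1 and 17.6 at E50 and 16.4, 6.76 and 17.9 at E60, and its stages overlapped. GJB5 was at 0.944 to 2.78 FPKM, DSC1 at 0.422 to 2.96 FPKM and CDH4 at 0.11 to 1.11 FPKM, and DSC3 was listed at 0 in all 9 libraries.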
